A study of Mus musculus with 12 samples.

Results

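The renin-angiotensin and mineralocorticoid genes measured in mouse left ventricle are described here as 7 named genes, Agt, Ace, Agtr1a, Agtrap, Atp6ap2, Nr3c2 and Hsd11b1. They were taken by symbol from a table of 29564 gene rows, and all 7 were among the 14333 genes with enough counts to be tested. The table holds bulk polyA RNA-seq of 12 left ventricles from wild-type C57BL6 mice (C57BL/6J adult males by the study's methods) in 3 groups of 4 animals. Control-Veh animals were non-failing and received vehicle. HFpEF-Veh animals were on a high-fat diet and L-NAME, which blocks nitric oxide synthase, a combination used to model heart failure that spares the ejection fraction, and received the same vehicle. HFpEF-TYA-018 animals, also on diet and L-NAME, were given the HDAC6 inhibitor TYA-018 orally at 15 mg/kg. HDAC6 is a mainly cytoplasmic lysine deacetylase. The groups are called control, untreated HFpEF and treated hearts below. The series title gives a single dose, and the study describes hearts taken hours after it, whereas the treatment label describes daily dosing over weeks. The title was followed here. Diet and L-NAME were never given apart, so their parts in a difference cannot be told apart.

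In the classical pathway, renin from the kidney cuts angiotensinogen (Agt) to angiotensin I, angiotensin-converting enzyme (Ace) makes angiotensin II from it, and the type 1 receptor (Agtr1a) carries the pressor and growth signals of that peptide. The mineralocorticoid receptor (Nr3c2) is the nuclear receptor for aldosterone, but in heart muscle, where little of the protecting enzyme Hsd11b2 is made, it is largely occupied by glucocorticoids. Drugs against the converting enzyme, the type 1 receptor and the mineralocorticoid receptor are standard treatments of heart failure.

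Libraries held 61177646 to 83928922 estimated counts, the highest being 1 HFpEF-TYA-018 library (T1). Mitochondrial genes took 37.0 to 40.6% of these counts in control hearts, 43.1 to 47.7% in untreated HFpEF hearts and 35.4 to 41.3% in treated hearts. Levels are given in CPM, counts relative to the TMM-scaled size of their library, in the order of libraries 1 to 4 of each group (C1 to C4, V1 to V4, T1 to T4). Fold changes, standard errors and adjusted p-values come from edgeR's quasi-likelihood test fitted over all 12 libraries, with Benjamini-Hochberg adjustment over the 14333 genes, and a gene is called when that value is under 0.05. Cardiomyocyte markers marked the tissue as labelled, with 10 of 10 detected and summed levels of 15600 to 34000 TPM (transcript abundance per length, relative to the library).

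In the model, that is untreated HFpEF against control, 5 of the 7 genes differed, against 21.2% of all genes tested. Agt, Ace and Atp6ap2 rose, 3 of 7 against 10.9% of all genes, and Agtr1a and Nr3c2 fell, 2 of 7 against 10.3%. The groups did not overlap in these 5 genes, as was so for 23.5% of all genes. After the HDAC6 inhibitor, Ace and Atp6ap2 were lower and Nr3c2 was higher than in untreated HFpEF hearts, 3 of 7 genes against 19.3% of all genes (8.93% higher and 10.4% lower). The same 3 of 7 did not overlap between these groups, against 25.1% of all genes. The model and inhibitor comparisons share the untreated HFpEF libraries, so an error in that group shifts them in opposite directions. Opposite differences in the 2 comparisons are therefore not independent results. Set against control, treated hearts differed in 1 of 7 genes, Agt, against 5.86% of all genes (3.12% higher and 2.74% lower). Agt, Agtr1a and Nr3c2, 3 of 7, did not overlap, against 14.8% of all genes. The median log2 fold change of the 7 genes was 0.20, -0.21 and -0.02 in these 3 comparisons, beside -0.01, 0.00 and -0.02 over all genes tested.

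**Figure D1:**
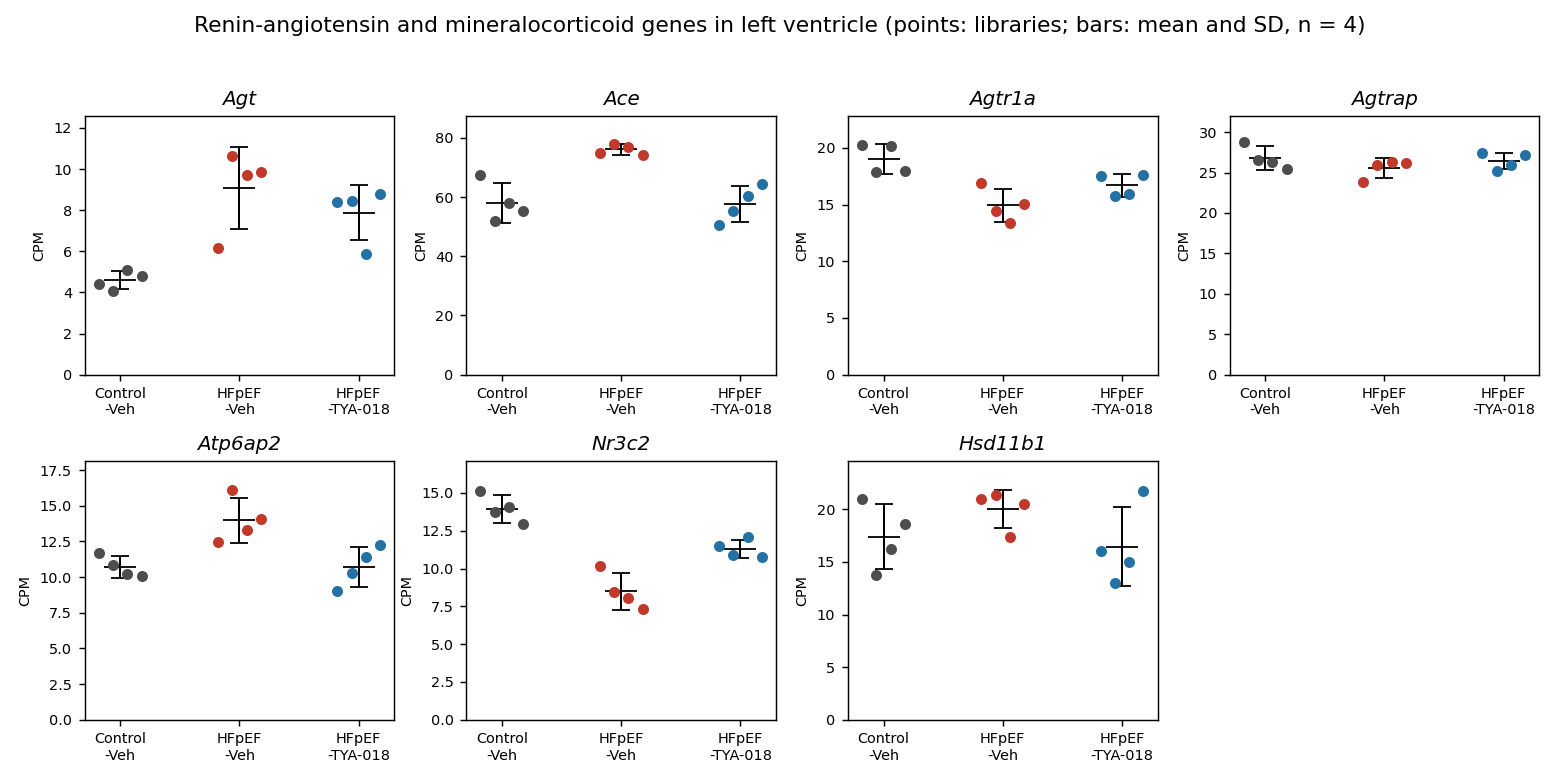
Level of each of the 7 genes in CPM (y axis, from 0) in the 3 groups (x axis); points are libraries and bars the mean and SD of 4. Agt is at 4.09 to 5.09 CPM in control hearts and at 5.88 CPM or more in every other library, and Nr3c2 separates into 3 bands.

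The genes lie on 6 chromosomes of the GRCm38 build (positions from GENCODE M21, all protein-coding). Agt is at chr8:124556534-124569706 on the minus strand and Nr3c2 at chr8:76899442-77245012 on the plus strand. Ace is at chr11:105967945-105989964 (plus), Agtr1a at chr13:30336441-30382867 (plus), Agtrap at chr4:148077061-148088031 (minus), Atp6ap2 at chrX:12587801-12617049 (plus) and Hsd11b1 at chr1:193221634-193264075 (minus). Genes on the other strand overlap Ace (Gm11651), Nr3c2 (Gm10649 and Gm24838) and Hsd11b1 (4930570N18Rik and Lamb3). On the same strand Gm48161 lies within Agtr1a, Gm23260 overlaps Nr3c2 and Gm38118 overlaps Hsd11b1. The library kit keeps strand, but the strand setting of the quantification is not given in the sources used here. In Atp6ap2, 2.53% of 50-base windows of its transcripts also occur in Gm36448, and in Agtr1a 1.23% occur in other genes, mainly Agtr1b.

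RefSeq promoter windows (GRCm38.p6, 250 bases before to 50 after the start site) were matched for 6 of the 7 genes. Those of the 4 genes with a window that changed in the model are shown so that the motifs named below can be seen in place. Capitals mark matches, on either strand, to the half-site AGAACA, which glucocorticoid and mineralocorticoid receptors recognize, to the CCAAT box as spelled by its name, to the GC box, searched as GGGCGG, or to the TATA box, searched as TATAAA.
Agt, chr8:124569657-124569956, minus strand: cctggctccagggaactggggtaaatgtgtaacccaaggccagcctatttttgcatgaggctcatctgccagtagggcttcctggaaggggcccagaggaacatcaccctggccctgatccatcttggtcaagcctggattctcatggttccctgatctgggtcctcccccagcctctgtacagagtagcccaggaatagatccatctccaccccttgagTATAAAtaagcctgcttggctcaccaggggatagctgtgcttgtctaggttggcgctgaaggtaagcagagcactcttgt
Nr3c2, chr8:76902080-76902379, plus strand: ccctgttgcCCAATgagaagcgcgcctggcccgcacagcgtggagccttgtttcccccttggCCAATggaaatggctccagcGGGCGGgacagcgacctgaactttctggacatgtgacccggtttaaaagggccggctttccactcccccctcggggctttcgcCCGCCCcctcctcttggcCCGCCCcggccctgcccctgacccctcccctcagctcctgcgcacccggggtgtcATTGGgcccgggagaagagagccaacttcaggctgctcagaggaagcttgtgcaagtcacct
Ace, chr11:105967698-105967997, plus strand: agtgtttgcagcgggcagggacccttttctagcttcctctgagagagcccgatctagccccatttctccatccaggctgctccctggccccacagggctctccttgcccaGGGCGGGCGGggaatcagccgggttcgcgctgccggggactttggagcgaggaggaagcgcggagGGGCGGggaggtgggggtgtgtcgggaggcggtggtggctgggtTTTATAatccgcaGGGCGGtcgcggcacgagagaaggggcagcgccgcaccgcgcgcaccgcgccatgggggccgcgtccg
Atp6ap2, chrX:12587509-12587808, plus strand: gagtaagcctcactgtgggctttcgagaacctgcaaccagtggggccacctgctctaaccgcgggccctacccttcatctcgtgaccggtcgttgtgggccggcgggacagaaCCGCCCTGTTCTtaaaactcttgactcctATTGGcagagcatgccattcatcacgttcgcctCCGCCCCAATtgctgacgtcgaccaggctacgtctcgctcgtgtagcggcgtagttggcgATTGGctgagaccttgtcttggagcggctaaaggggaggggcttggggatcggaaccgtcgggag

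The Agt and Ace windows each hold a match to TATAAA just before the start site, at -30 and -31. That of Agt is on the gene's own strand and that of Ace on the opposite strand. A match on either strand occurs somewhere in 13.6% of all 32851 promoter windows. Nr3c2 holds 3 GC boxes and 3 CCAAT boxes and no TATA box, and GC and CCAAT boxes occur in 35.7% and 37.4% of all windows. The receptor half-site was found in 1 of the 6 genes, Atp6ap2, at -131, directly after a GC box, and in 19.0% of all windows. In the same promoter another GC box shares a base with a CCAAT box. The cAMP response element TGACGTCA, present in 1.79% of all windows, was in none of the 6 genes' windows, and an E-box (CACGTG, 7.15% of all) was in that of Agtrap. Ace has a further window inside the gene, where the testis form starts. A match describes letters and says nothing of binding.

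Agt, the substrate from which all angiotensins are cut, showed the largest rise of the 7 genes. It was at 4.41, 4.09, 5.09 and 4.79 CPM in control hearts, at 6.15, 10.6, 9.71 and 9.86 CPM in untreated HFpEF hearts and at 8.41, 8.44, 5.88 and 8.77 CPM in treated hearts. Every HFpEF library was above every control library, with V1 and T3 lowest in their groups, and the HFpEF groups overlapped each other. The rise in untreated HFpEF hearts was 1.98-fold (log2 fold change 0.98 ± 0.17 SE, edgeR adjusted p = 0.00256). In treated hearts Agt stayed 1.71-fold above control (0.78 ± 0.17, edgeR adjusted p = 0.0235), a call made in 3 of the 8 fits that leave out 1 library. It was lost without C2, C4, T1, T2 or T4, with an adjusted p of up to 0.0653. Treated and untreated HFpEF hearts differed by -0.21 (95% interval -0.57 to 0.16, edgeR adjusted p = 0.422). Agt is made chiefly in the liver, and the sum of 9 liver transcripts went the other way, 8 of them having negative fold changes in the model, with 13.3 to 40.4 TPM in control hearts and 1.83 to 8.26 TPM in untreated HFpEF hearts. V1 and T3 had the highest liver sums of their groups, 8.26 and 37.2 TPM. The part of these liver transcripts in the Agt values was not tested.

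Ace, which makes angiotensin II and also degrades bradykinin, is abundant on endothelium. Its level was 67.5, 51.8, 57.9 and 55.3 CPM in control hearts, 74.9, 78.1, 77.1 and 74.3 CPM in untreated HFpEF hearts and 50.6, 55.3, 60.4 and 64.3 CPM in treated hearts. The HFpEF-Veh libraries lay close together and above all others, while the control and treated groups covered the same range. Ace rose 1.31-fold in the model (0.39 ± 0.09, edgeR adjusted p = 0.00973) and fell to 0.757 of the HFpEF-Veh level with the inhibitor (-0.40 ± 0.09, edgeR adjusted p = 0.0094). Both calls were kept in 8 of 8 fits that leave out 1 library. Between treated and control hearts the difference was -0.01 (95% interval -0.20 to 0.18). Summed CPM of endothelial markers moved the same way, at 1140 to 1340, 1470 to 1690 and 1100 to 1370 in the 3 groups. In TPM their sums were 215 to 221, 217 to 271 and 223 to 324, not lower in treated hearts. Of 10 markers, 4 rose in the model (10.9% of all genes) and 5 fell with the inhibitor (10.4%). In bulk tissue fewer cells of a type and less RNA per cell cannot be told apart, and the part of endothelial content in the Ace values was not tested.

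Agtr1a, the main angiotensin II receptor of the adult mouse heart, moved the opposite way to the ligand's precursor. It was at 20.25, 17.8, 20.1 and 17.9 CPM in control hearts, 16.9, 14.4, 13.3 and 15.1 CPM in untreated HFpEF hearts and 17.5, 15.7, 15.9 and 17.6 CPM in treated hearts. All control libraries were above all HFpEF libraries, and the HFpEF groups overlapped. The fall in the model was to 0.784 of control (-0.35 ± 0.08, edgeR adjusted p = 0.0106), kept in 8 of 8 fits that leave out 1 library. With the inhibitor the difference from HFpEF-Veh was 0.16 (95% interval -0.01 to 0.34, adjusted p = 0.183), and from control it was -0.19 (-0.36 to -0.01, adjusted p = 0.191), neither of which passed the edgeR test.

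Agtrap, which binds the type 1 receptor and promotes its internalization, was at 25.4 to 28.8 CPM in control hearts, 23.8 to 26.3 CPM in untreated HFpEF hearts and 25.2 to 27.4 CPM in treated hearts. The 3 groups overlapped. Its log2 differences were -0.07, 0.05 and -0.02, and the widest interval, -0.19 to 0.06 for the model, does not reach the -0.35 of the receptor.

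Atp6ap2, the (pro)renin receptor and an accessory protein of the proton pump V-ATPase, was at 11.7, 10.8, 10.2 and 10.1 CPM in control hearts, 12.4, 16.1, 13.3 and 14.1 CPM in untreated HFpEF hearts and 9.01, 10.3, 11.4 and 12.2 CPM in treated hearts. HFpEF-Veh lay above the other groups, by a narrow margin between V1 and T4. It rose 1.31-fold in the model (0.39 ± 0.11, edgeR adjusted p = 0.0227) and was at 0.767 of HFpEF-Veh with the inhibitor (-0.38 ± 0.11, edgeR adjusted p = 0.0258). These calls were kept in 5 and 4 of 8 fits that leave out 1 library. The first was lost without C3, C4 or V2 (adjusted p up to 0.0666) and the second without V2, V4, T1 or T2 (up to 0.0736).

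Nr3c2, the mineralocorticoid receptor, had the smallest p-value of the 7 genes in the model. It was at 15.15, 13.7, 14.1 and 12.9 CPM in control hearts, 10.2, 8.44, 8.05 and 7.33 CPM in untreated HFpEF hearts and 11.5, 10.9, 12.1 and 10.7 CPM in treated hearts. No 2 groups overlapped in CPM, control being highest, treated hearts in between and untreated HFpEF hearts lowest. It fell to 0.608 of control (-0.72 ± 0.10, edgeR adjusted p = 0.000784) and was 1.33-fold higher with the inhibitor than without (0.41 ± 0.10, edgeR adjusted p = 0.0121), each in 8 of 8 fits that leave out 1 library. The remaining difference of treated hearts from control, -0.30 ± 0.09, did not pass (edgeR adjusted p = 0.0803, and 0.0354 with DESeq2). In TPM these 2 groups overlapped, at 0.820 to 0.968 in control hearts and 0.600 to 1.225 in treated hearts.

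Hsd11b1, which regenerates active glucocorticoid inside cells, was at 20.98, 13.8, 16.2 and 18.6 CPM in control hearts, 20.96, 21.4, 17.3 and 20.5 CPM in untreated HFpEF hearts and 16.1, 12.95, 15.0 and 21.7 CPM in treated hearts. The groups overlapped, and T4 alone was high among treated hearts. None of the edgeR differences passed, at 0.20 (95% interval -0.14 to 0.54), -0.29 (-0.63 to 0.06) and -0.08 (-0.42 to 0.26). Without T4 the difference between treated and untreated HFpEF hearts was -0.45 (adjusted p = 0.043).

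**Figure D2:**
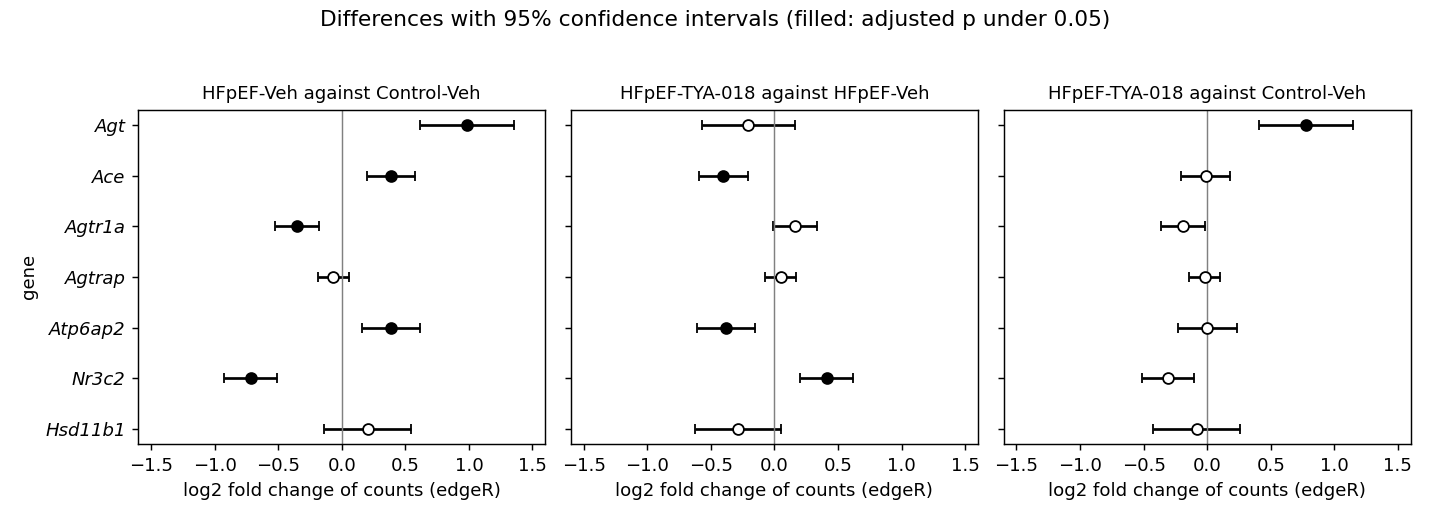
Log2 fold change of counts (x axis) for each gene (y axis) in the 3 comparisons, with 95% confidence intervals from edgeR and filled points for genes with an adjusted p under 0.05. In the model Agt (0.98) and Nr3c2 (-0.72) lie farthest from 0, and only Agt (0.78) is filled for treated hearts against control.

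The deposit also gives TPM, which divides each count by an effective gene length estimated separately in every library. On that scale several differences were smaller or turned. Lengths differed between groups over all genes tested. The median log2 length of a library, relative to each gene's mean over the 12 libraries, was -0.06 to 0.01 in control hearts. It was 0.04 to 0.11 in untreated HFpEF hearts and -0.16 to 0.01 in treated hearts. The effective length of Atp6ap2 ran from 2837 to 4954 bases, above its longest annotated transcript (2324 bases) in 12 of 12 libraries, and that of Agtrap from 1788 to 7470 bases. The mean length for Ace was 3889 bases in control hearts, 3802 in untreated HFpEF hearts and 3298 in treated hearts. In the same order it was 2029, 2237 and 2006 bases for Agtr1a and 5501, 6242 and 5312 bases for Nr3c2. The lengths of Agtr1a and Nr3c2 passed the longest annotated transcript (2199 and 5916 bases) in 4 and 2 libraries, all of untreated HFpEF hearts. In TPM, Ace was 5.23 ± 0.96, 6.41 ± 0.97 and 6.86 ± 0.98 (SD, n = 4) and Atp6ap2 1.05 ± 0.12, 1.03 ± 0.16 and 1.25 ± 0.25, with neither lower in treated hearts.

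On log2(TPM + 0.1), limma called 1 of the 7 genes in the model, Nr3c2 (-0.89, adjusted p = 0.043), and 2 with the inhibitor, Nr3c2 (0.82, adjusted p = 0.0247) and Agtr1a (0.60, adjusted p = 0.0405). The median of all genes itself moved by -0.17 in the model and 0.34 with the inhibitor on this scale. Set against that median, Ace differed by 0.47 in the model and by -0.25 with the inhibitor, Agt 0.99 and -0.25, Atp6ap2 0.14 and -0.10 and Nr3c2 -0.72 and 0.47, the same directions as from counts, whereas Agtrap turned in both, at 0.23 and -0.07. With effective lengths as an offset to the counts, edgeR called 4 genes in the model, Agt, Ace, Agtr1a and Nr3c2, and 1 with the inhibitor, Nr3c2. Nr3c2 was thus called in both comparisons on each of these 3 scales, but not in the model on log2(TPM + 1) (adjusted p = 0.0695) nor with the inhibitor on log2(TPM + 1) rescaled without mitochondrial genes (adjusted p = 0.0558). The plot of differences on 3 scales shows the genes that turned.

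**Figure D3:**
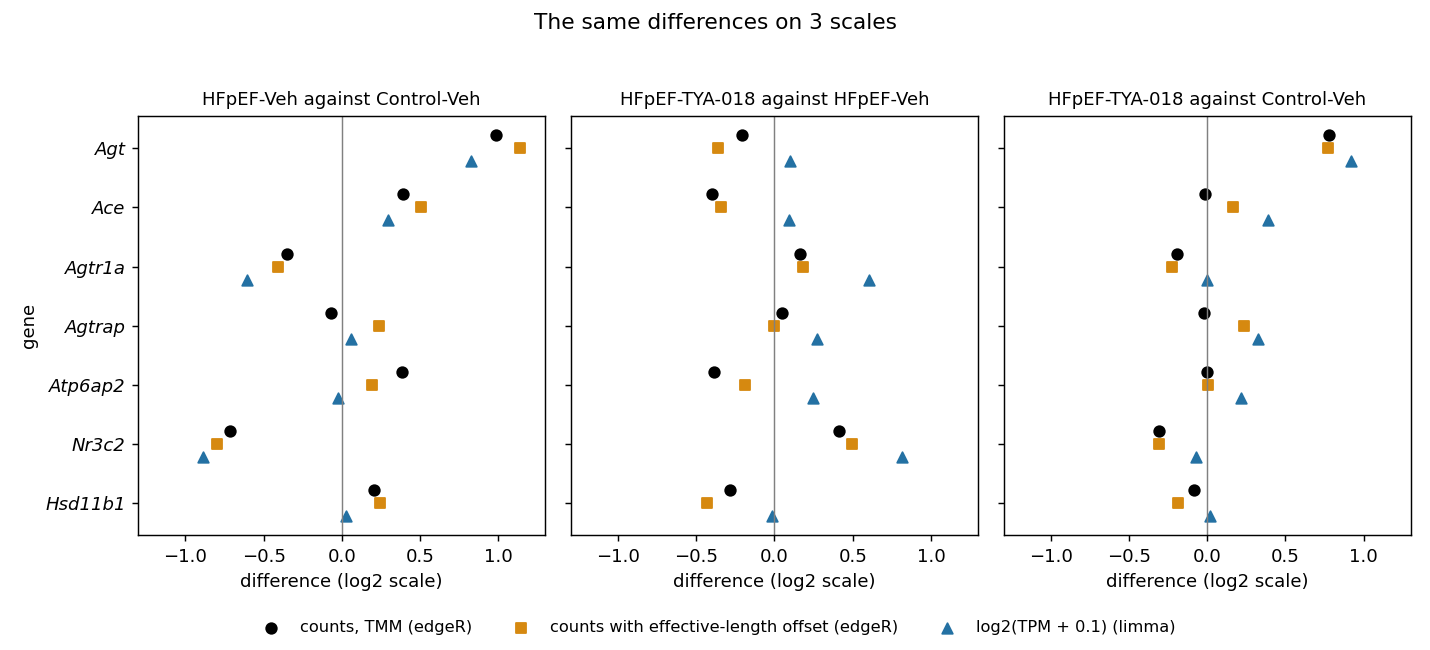
Difference on the log2 scale (x axis) for each gene (y axis) in the 3 comparisons, from TMM-scaled counts (circles), counts with an effective-length offset (squares) and log2(TPM + 0.1) (triangles). With the inhibitor, Ace moves from -0.40 to 0.10 and Atp6ap2 from -0.38 to 0.24 between counts and TPM, while Nr3c2 stays on 1 side of 0 in all 3 comparisons.

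Per length, Hsd11b1 was the most abundant of the 7 messages in control hearts (13.3 ± 2.86 TPM), followed by Ace (5.23 ± 0.96), Agtr1a (3.27 ± 0.29), Agtrap (2.39 ± 1.04), Atp6ap2 (1.05 ± 0.12), Agt (1.02 ± 0.10) and Nr3c2 (0.884 ± 0.062). The control ranges of Agtr1a and Agtrap overlapped, as did those of Agtrap with Atp6ap2 and of Agt with its neighbours in this order. The effective length of Hsd11b1, 420 to 524 bases, lay at the short end of its annotated transcripts (398 to 1978 bases). Its place in this order depends on that estimate. The places of Atp6ap2 and Agtrap depend likewise on lengths that passed the longest annotated transcript, in 12 and 7 of 12 libraries.

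Other parts of the pathway were low or absent in the muscle itself. Renin (Ren1) and aldosterone synthase (Cyp11b2) were at 0 counts in 12 of 12 libraries, which allows up to 3 counts in each, or 0.0357 to 0.049 CPM, as a matter of counting error alone. The receptor genes Agtr1b and Agtr2 had 1 and 3 counts in all 12 libraries together. Mas1, the receptor for angiotensin 1-7, was at 0.836 ± 0.098, 0.591 ± 0.309 and 0.747 ± 0.146 CPM, and chymase (Cma1), a mast cell enzyme that also makes angiotensin II, had 0 counts in 4 libraries and at most 37 in any. Neither differed between groups beyond the spread, with edgeR adjusted p of 0.324 or more.

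Nr3c1, the glucocorticoid receptor, which shares its ligand and much of its DNA recognition with Nr3c2, did not pass in any comparison, at 31.3 ± 2.76, 32.9 ± 2.30 and 30.1 ± 2.05 CPM. The log2 ratio of Nr3c1 to Nr3c2 in TPM (pseudocount 0.1) was 0.952, 0.693, 0.86 and 0.872 in control hearts, 1.47, 1.33, 1.69 and 1.77 in untreated HFpEF hearts and 0.894, 0.976, 1.01 and 1.23 in treated hearts. HFpEF-Veh stood above both other groups, which overlapped. The ratio changed by 0.72 in the model and by -0.54 with the inhibitor (two-sided exact permutation p = 0.0286 each, the smallest that 4 against 4 allows, and 0.0343 after adjustment over 6 ratio tests), and was 0.18 above control in treated hearts (exact permutation, adjusted p = 0.0571). With a pseudocount of 1 the first 2 differences were 0.28 and -0.18 and did not pass (exact permutation, adjusted p = 0.0857 each).

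Hsd11b2, which inactivates glucocorticoid and so lets aldosterone reach the receptor in kidney, had 1 to 23 counts per library. Of 10 genes of corticosteroid supply and receptors, 5 were tested and 0 were called by edgeR in any comparison. At an unadjusted p under 0.05 there was 1 in each, and DESeq2 called 0, 0 and 1.

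Among genes that these receptors are known to drive, Sgk1, a kinase induced by both aldosterone and glucocorticoid, was at 80.6, 67.0, 83.5 and 62.9 CPM in control hearts, 144.4, 149.4, 141.6 and 121.9 CPM in untreated HFpEF hearts and 80.8, 72.6, 75.3 and 84.1 CPM in treated hearts. The untreated HFpEF libraries were all above the rest, and the other groups overlapped. It rose 1.90-fold (0.92 ± 0.10, edgeR adjusted p = 0.000412) and changed by -0.83 ± 0.10 with the inhibitor (edgeR adjusted p = 0.00068). Fkbp5, a chaperone of both receptors and a glucocorticoid target, followed with 0.86 ± 0.14 (edgeR adjusted p = 0.00194) and -0.87 ± 0.14 (0.00257), and Edn1, the precursor of the vasoconstrictor endothelin-1, with 0.81 ± 0.17 (0.00592) and -1.08 ± 0.17 (0.00213). All these calls were kept in 8 of 8 fits that leave out 1 library, but on log2(TPM + 0.1) Sgk1 and Fkbp5 had adjusted p-values of 0.0793 to 0.237.

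Of the 12 receptor targets listed, 3 rose and 0 fell in the model (21.2% of all genes called), and 0 rose and 4 fell with the inhibitor (19.3%). Their median differences were 0.24 and -0.39. Against control, treated hearts showed 0 of 12 called by edgeR, with 2 at an unadjusted p under 0.05 and 1 called by DESeq2. Sgk1, Fkbp5 and Edn1 also answer to glucocorticoid and other signals, and corticosteroid levels were not measured.

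**Figure D4:**
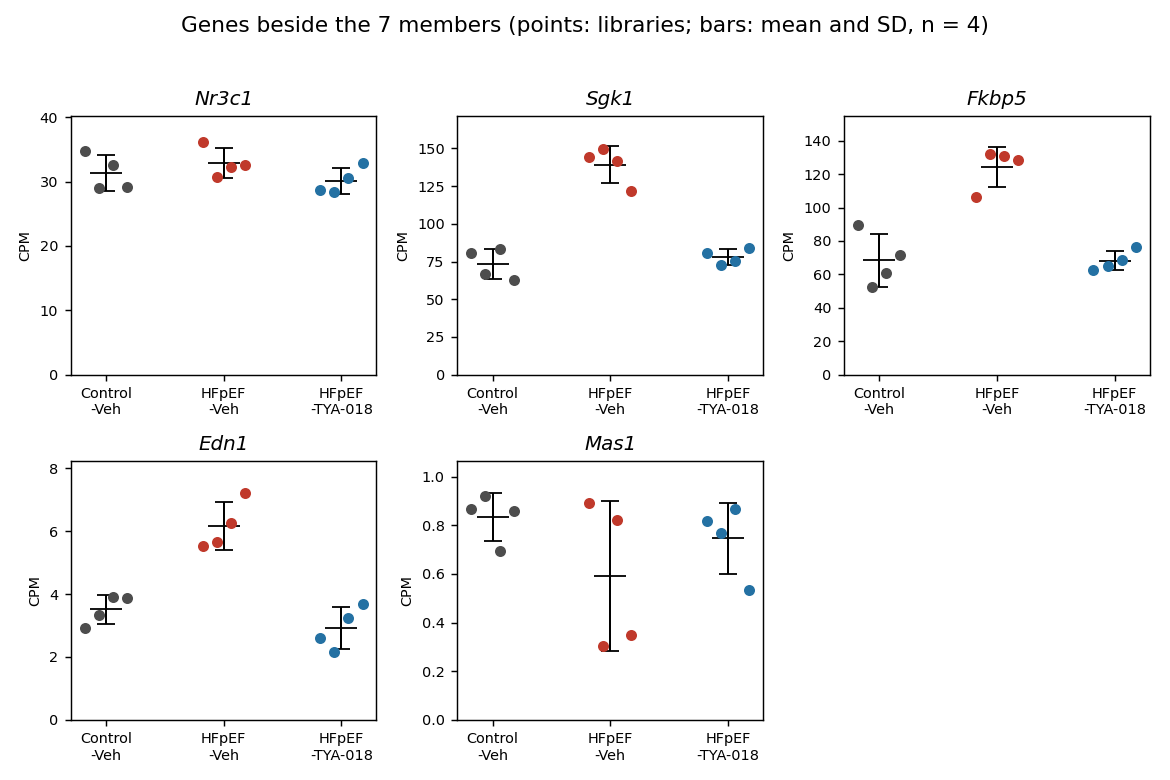
Level in CPM (y axis, from 0) of Nr3c1, Sgk1, Fkbp5, Edn1 and Mas1 in the 3 groups (x axis); points are libraries and bars the mean and SD of 4. Sgk1 stands at 122 to 149 CPM in untreated HFpEF hearts and 62.9 to 84.1 CPM elsewhere.

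Among 16 other enzymes that form or degrade angiotensin peptides, 14 were tested, of which 2, 3 and 2 were called in the 3 comparisons, beside 21.2%, 19.3% and 5.86% of all genes. In the model Anpep (aminopeptidase N) rose (0.60 ± 0.19, edgeR adjusted p = 0.0386, kept in 1 of 8 fits that leave out 1 library) and Thop1, an oligopeptidase that acts on angiotensin I, fell (-0.32 ± 0.08, 0.0172). With the inhibitor 1 rose and 2 fell. Ctsd, the lysosomal protease cathepsin D that can cut angiotensinogen, rose by 0.32 ± 0.06 (edgeR adjusted p = 0.00434), and Anpep fell (-0.94 ± 0.19, 0.00632). Against control, Ctsd was higher by 0.39 ± 0.06 (edgeR adjusted p = 0.00439). Their median difference was 0.10, -0.11 and 0.08 in the 3 comparisons.

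Of 9 genes for other angiotensin and kinin receptors and kinin precursors, 3 were tested, and 1 was called, kininogen (Kng1) in the model. Kng1, a liver product, was at 0.468 to 1.40 CPM in control hearts and 0 to 0.138 CPM in untreated HFpEF hearts (-3.81 ± 1.01, edgeR adjusted p = 0.0195), and 6 of 9 liver markers fell in the same comparison. With the inhibitor edgeR called 0 of 3, with 1 at an unadjusted p under 0.05 and 1 by DESeq2, and against control 0 of 3 by each of these counts.

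Downstream of the type 1 receptor, 16 genes of G protein, phospholipase and desensitization machinery were tested. In the model 5 rose and 2 fell, beside 21.2% of all genes called. Grk5, a kinase that desensitizes the receptor, rose by 0.36 ± 0.05 (edgeR adjusted p = 0.00108), Rcan1, a calcineurin target and inhibitor, by 0.40 ± 0.08 (0.00453) and Rgs5, a brake on Gq signalling in pericytes, by 0.34 ± 0.07 (0.00769). With the inhibitor 0 rose and 5 fell (19.3% of all genes called), led by Rgs5 (-0.44 ± 0.07, edgeR adjusted p = 0.00286) and the phospholipases C Plcb3 (-0.38 ± 0.07, 0.00382) and Plcb4 (-0.67 ± 0.13, 0.00596). Against control 3 were higher in treated hearts (5.86% of all genes called), Gna12 (0.33 ± 0.05, edgeR adjusted p = 0.00515), Grk5 (0.29 ± 0.05, 0.0102) and Rcan1 (0.29 ± 0.08, 0.0487, kept in 1 of 8 fits that leave out 1 library). The median difference of the 16 was 0.15, -0.11 and -0.06. Rgs5 is also on the list of 10 pericyte and smooth muscle markers. Of these, 4 had positive and 6 negative differences in the model, and 6 positive and 4 negative ones with the inhibitor. Rgs5 was the only marker of that list called in either comparison.

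Of 15 V-ATPase subunit genes, the complex that Atp6ap2 helps to assemble, 4 rose and 0 fell in the model, beside 21.2% of all genes called. With the inhibitor 1 rose and 1 fell (19.3% of all genes), and against control 5 were higher and 0 lower (5.86%). Atp6v1a, the catalytic subunit, rose by 0.49 ± 0.09 (edgeR adjusted p = 0.00274), Atp6v0a2 by 0.25 ± 0.06 (0.0166) and Atp6v1h by 0.28 ± 0.08 (0.0203, kept in 3 of 8 fits that leave out 1 library). After the inhibitor Atp6v0d1 rose by 0.21 ± 0.06 (edgeR adjusted p = 0.0209) and Atp6v1a fell, at -0.30 ± 0.09 (0.0291), each kept in 3 of 8 fits that leave out 1 library. Against control the highest-ranked were Atp6v1h (0.38 ± 0.08, edgeR adjusted p = 0.0161), Atp6v0e (1.47 ± 0.36, 0.0362) and Atp6v0d1 (0.22 ± 0.06, 0.0408). Of these 3 calls, the first was kept in 7 of 8 fits that leave out 1 library and the others in 1 of 8 each (adjusted p up to 0.0911 and 0.0981). Atp6ap2 itself differed from control by 0.00 in treated hearts (95% interval -0.23 to 0.23).

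Markers of several other cell types moved with the groups too. In the model 8 of 8 macrophage markers and 6 of 10 fibroblast markers rose, beside 10.9% of all genes. Of 10 cardiomyocyte markers 7 fell and 1 rose, beside 10.3% of all genes called lower. With the inhibitor 5 of 8 macrophage and 6 of 10 fibroblast markers fell (10.4% of all genes) and 4 of 10 cardiomyocyte markers rose (8.93%). Summed CPM was 137 to 171, 213 to 283 and 156 to 191 for macrophage markers, 718 to 1150, 1150 to 1640 and 792 to 1160 for fibroblast markers and 34100 to 44000, 30700 to 32600 and 34900 to 38100 for cardiomyocyte markers in control hearts, HFpEF-Veh and HFpEF-TYA-018. In TPM, macrophage sums were 59.7 to 84.7 in untreated HFpEF hearts and 58.9 to 88 in treated hearts. Fibroblast sums were 218 to 293 and 191 to 256 TPM, and cardiomyocyte sums 15600 to 18900 and 18600 to 34000 TPM. These TPM ranges overlapped between untreated HFpEF and treated hearts for each list. In control hearts the sums were 44.5 to 62.2, 174 to 257 and 21700 to 27500 TPM for macrophage, fibroblast and cardiomyocyte markers. The control range of cardiomyocyte markers lay above that of untreated HFpEF hearts, while the macrophage and fibroblast ranges overlapped. Red cell markers were 4780 to 14100 CPM in untreated HFpEF hearts and 3570 CPM or less elsewhere. Fat markers stayed at 2.48 CPM or less in sum. Of 10 pericyte and smooth muscle markers 1 was called in the model and 1 with the inhibitor (21.2% and 19.3% of all genes). The median differences of that list were -0.05 and 0.07. Of 5 mast cell markers tested 0 were called in either comparison. Of 4 atrial markers tested 1 fell in the model and 0 were called with the inhibitor. The part of cell content in the differences of the 7 genes was not tested.

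The genes whose log2 CPM most resembled each of the 7 over the 12 libraries were named by Pearson's r, as a description, since group differences and library preparation are shared by all points. Ace was nearest to Rac1 (r = 0.985) and Nid1 (0.983), Agt to Dennd2c (0.954) and Ninj1 (0.951), Agtr1a to Crtc1 (0.9) and Kcnv2 (0.896) and Agtrap to Galk2 (0.827) and Rev3l (0.82). Atp6ap2 was nearest to Sdc2 (0.959) and Aspn (0.958), Nr3c2 to Rwdd3 (0.98) and Entpd5 (0.961) and Hsd11b1 to Tnxb (0.954) and Thbs2 (0.913). Among the 7 themselves, Ace went with Atp6ap2 (0.907, and 0.711 within groups), Nr3c2 with Agtr1a (0.875, and 0.537 within groups) and Nr3c2 against Agt (-0.871, and -0.738 within groups).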

How the data were processed

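Estimated counts, TPM and effective gene lengths per gene were deposited in separate tables for 12 left ventricles. The authors trimmed reads with fastp, quantified transcripts with Salmon 1.6.0 against GENCODE transcripts of mouse and summed them to genes. Submitters' notes name a human build although the gene symbols are mouse, and labels and methods differ in read length and layout. Effective length is the authors' estimate for each gene and library, and TPM follows it, which bears on Ace, Agtr1a, Agtrap, Atp6ap2 and Nr3c2. Replicates are labelled as separate animals, in the order of accession, and group assignments came from the labels. All 12 columns were used.

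Estimated counts were rounded, genes filtered with filterByExpr (14333 of 29564 kept), scaled by TMM and fitted in edgeR 4.0.16 (quasi-likelihood, 3 groups, 3 comparisons, R 4.3.3). limma 3.58.1 on log2(TPM + 0.1) and log2(TPM + 1), DESeq2 1.42.0, length offsets, other filters and leaving out each library served as alternatives. The log2 ratio of Nr3c1 to Nr3c2 was tested by exact permutation, adjusted over 6 ratio tests. The edgeR step was tested on simulated data with 14122 genes. In the model comparison the median ratio of fitted to true difference was 1.01 for log2 changes of 1 and of 0.5. Of these, 58.2% and 26% were called, and 5.68% of all calls were of unchanged genes. Only 98 and 100 genes were changed there, a smaller share than the 21.2% called in the data, so these percentages do not carry over. Counting limits and intervals cover only the error each names. The edgeR p-values set a difference against the spread between animals, 4 a group. That spread is estimated over all 12 libraries, with information shared across genes.

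The 7 genes and the lists of other genes were chosen with earlier results of these data known. Beside the 7, the partners Ren1, Cma1, Agtr1b, Agtr2, Mas1, Nr3c1, Hsd11b2, Cyp11b2 and Sgk1 are always named, and from each list up to 3 called genes with the smallest adjusted p in a comparison. For each of the 7, the 2 genes with the highest r are named. Anpep, Thop1 and other list genes follow that rule. The Kng1 levels were named after their values were seen. List counts cover every gene of a list, but some genes of the lists and the other 3 ratio tests are not reported here.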

Additional observations from a re-analysis of the deposited data

Results flagged for a closer look

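A library that stands apart from the other 3 of its group was looked for in 24 groups of 4 (the 7 genes and the ratio of Nr3c1 to Nr3c2 in 3 groups), where chance marks about 1 in 20. There were 2 such libraries. Agt was 5.884 CPM in the HFpEF-TYA-018 library T3, with 8.41 to 8.77 CPM in the others, a gap of 0.876 of the group's range. Without T3 the treated hearts were still called above control. Agtrap was 23.79 CPM in the HFpEF-Veh library V1, with 25.99 to 26.3 CPM in the others (0.872 of the range).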

How the results depend on the processing

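No paired analysis was possible because the groups share no animals or numbered pairs, so no block could be fitted. The number of the 7 genes called stayed at 5, 3 and 1 (model, inhibitor, treated against control) with RLE size factors, with no filter on low counts and with only the 2 groups compared. DESeq2 called 5, 3 and 2. With an effective-length offset the numbers were 4, 1 and 0, on log2(TPM + 1) 0, 2 and 0, on log2(TPM + 0.1) 1, 2 and 0, and on log2(TPM + 1) rescaled without mitochondrial genes 2, 0 and 0. Leaving out 1 library gave 0 to 1 for treated hearts against control. Over all genes, calls numbered 3033, 2767 and 840 in edgeR, 3695, 3384 and 1487 in DESeq2, 1444, 1221 and 206 with the offset, 172 and 9 on log2(TPM + 1) and 301 and 11 on log2(TPM + 0.1) in the model and against control (with the inhibitor within 1.5 times of edgeR), 431, 718 and 25 on the rescaled values, and 588 and 568 in the last comparison with no filter and with 2 groups.

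Some log2 differences turned sign, and the cause was not tested. Of these, Atp6ap2 in both comparisons and Ace with the inhibitor had been called from counts. In the model Agtrap was 0.030, 0.059 and 0.20 on the 3 TPM scales in the order above and 0.24 with the offset, and Atp6ap2 -0.014 and -0.027 on the first 2. With the inhibitor Ace was 0.084 and 0.095 on the first 2 and Agt 0.065 and 0.097, Atp6ap2 was 0.14, 0.24 and 0.014 on the 3 scales, and Agtrap -0.0046 with the offset. For treated hearts against control Ace was 0.34, 0.39 and 0.31, and 0.17 with the offset, Agtrap 0.26, 0.33 and 0.24, and 0.24 with the offset, Agtr1a 0.0046 on the first scale and Hsd11b1 0.015 and 0.016 on the first 2. Leaving out 1 library there gave -0.066 to 0.067 for Ace, -0.044 to 0.018 for Agtrap, -0.064 to 0.079 for Atp6ap2 and -0.24 to 0.020 for Hsd11b1.

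The log2 ratio of Nr3c1 to Nr3c2 was 0.28 in the model and -0.18 with the inhibitor with a pseudocount of 1, which did not pass. On CPM it was 0.79 and -0.54 with each exact permutation p at the smallest that 4 against 4 allows (0.0286), and the adjusted 0.0571 follows from the other tests of the family. With no pseudocount, an alternative added after seeing the data, it passed in both, and from counts, added likewise, it also passed for treated hearts against control (0.25). Leaving out 1 library gave -0.62 to -0.47 with the inhibitor. With 3 against 4 libraries the two-sided exact p can be 0.0571 even where groups do not overlap, so its size without T1, T2 or T3 says nothing of those libraries.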
